A study of Culter alburnus with 9 samples.

Results

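The SLC16 family encodes monocarboxylate transporters (MCTs), membrane proteins that carry lactate, pyruvate, ketone bodies and other small organic molecules into and out of cells. In *Culter alburnus*, 25 of the 29791 loci in the count table were assigned to this family by name, either by a best Swiss-Prot hit to an SLC16A gene or by a protein description that begins with monocarboxylate transporter. The family was chosen from the count data for SLC16A9, which was higher in heterozygous runx2b mutants than in wild-type fish, so its values in that contrast are a description. The other family members were taken by their names, whatever their values.

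F1 fish aged 2 months, 9 in all, were sequenced. The groups were Ctrl (3 wild-type fish), He (3 fish heterozygous for a runx2b mutation) and Ho (3 fish homozygous for it), with 1 library from each fish and no pooling. The mutation came from F0 founders edited with CRISPR/Cas9 and chosen for carrying the same type of mutation, and every group was reared alike with no treatment. The tissue was trunk muscle with its myosepta, the connective sheets in which the intermuscular bones of cyprinids form. The fish had been picked for representative bone phenotypes and comparable body size, so the libraries are not a random draw of each genotype.

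The best-known members, MCT1 to MCT4, move lactate and pyruvate together with a proton, and most of them need the chaperone basigin to reach the cell membrane. In working muscle, MCT4 is known for the export of lactate from glycolytic fibres and MCT1 for its uptake by oxidative fibres. Other members have different cargo in mammals: MCT10 carries thyroid hormones and aromatic amino acids, MCT9 carries carnitine and MCT12 carries creatine, whereas MCT5 and MCT13 are little characterised.

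Each library held between 15869087 and 21009448 counts, of which the top 10 loci took 40.1% to 52.4%. The 14755 loci with enough counts were tested with edgeR (quasi-likelihood), and with DESeq2 as a second tool. The smallest edgeR adjusted p of any locus was 0.359 in He against Ctrl, 0.640 in Ho against Ctrl and 0.730 in Ho against He. Loci with different unadjusted p-values share these lowest values. Along the first principal component, Ctrl 1 and Ctrl 2 stood apart at -48.1 and -37.1, while Ctrl 3 (5.4) lay among the mutants, which ran from -13.2 to 44.5. The edited gene runx2b (ABG768_014534) had 11, 27 and 0 counts in Ctrl fish, 0, 8 and 3 in He fish and 11, 5 and 2 in Ho fish. These counts are low, and counts per locus do not show the edited bases, so the genotype labels were not checked. Fast muscle markers summed to between 158820 and 212260 TPM, a share of all transcripts that accounts for their length, in every fish, as the tissue label would have it.

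Of the 25 loci, 12 had enough counts to be tested and 13 did not. The tested loci held at least 81 counts over all 9 fish, and the others at most 73, with slc16a10 (ABG768_013799) at 0 in every library. Symbols are written as the files spell them, so slc16a1 appears as SLC16A1 and Slc16a1, slc16a6 as SLC16A6 and Slc16a6, and slc16a3 and slc16a7 in capitals. All 25 were placed on the chromosomes of the assembly ASM4018292v1, and none overlapped another annotated gene. Levels of different loci were compared as TPM, since CPM does not account for length. The most abundant was SLC16A1 (ABG768_026506), named as MCT1b, at a mean of 5.93 TPM over the 9 fish, followed by SLC16A3 (MCT4) at 3.65, Slc16a13 (MCT13) at 3.06, SLC16A5 (MCT6) at 2.80, slc16a10 (MCT10) at 2.66, SLC16A9 (MCT9a) at 2.09 and Slc16a4 (MCT5) at 1.12. The remaining 18 loci had mean levels under 1 TPM. Each locus overlapped its neighbour in this order across the fish, so the order is a description. SLC16A1 exceeded SLC16A3 in 7 of 9 fish, and Slc16a13 exceeded SLC16A5 in 4 of 9.

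**Figure D1:**
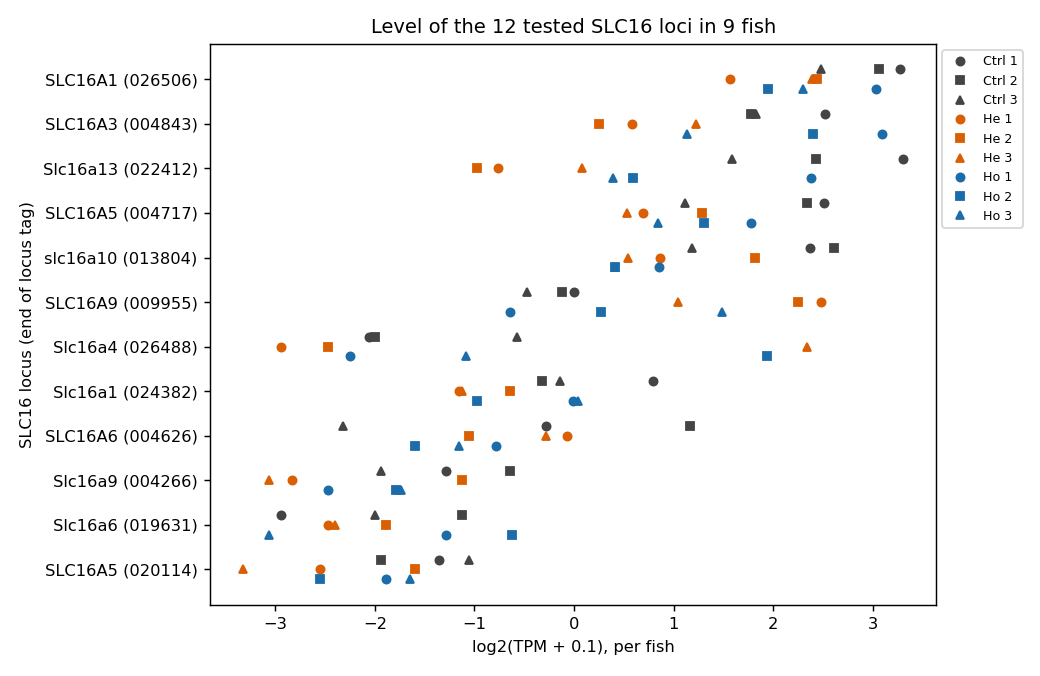
Level of the 12 tested SLC16 loci, as log2 of TPM plus 0.1, with 1 point per fish (colour for genotype, shape for fish number) and loci ordered by their mean TPM. SLC16A1 had the highest mean (5.93 TPM), and the He points of SLC16A9 lay to the right of its Ctrl points.

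SLC16A9 (ABG768_009955, chromosome 17, 22186565 to 22194741) is annotated as MCT9a. Scaled to library size as CPM, the count relative to the scaled library total, it stood at 2.00, 1.61 and 2.08 in the 3 Ctrl fish, 22.6, 12.8 and 6.56 in the 3 He fish and 1.61, 3.16 and 8.53 in the 3 Ho fish. All He fish lay above all Ctrl fish, and the Ho fish spread from the level of Ctrl to that of He. The means were 1.90 ± 0.249 CPM (SD, n = 3) for Ctrl, 14.0 ± 8.08 for He and 4.43 ± 3.63 for Ho. He was 7.37-fold above Ctrl on these means, the contrast from which the family was picked. Fast muscle markers (21 loci, none at 0) summed to between 172780 and 203210 TPM in Ctrl and 177100 to 212260 in He. Of these 21, 2 had log2 fold changes below 0 in He against Ctrl (50.7% of all loci), with a median of 0.53. Their part in the level of SLC16A9 was not tested. In Ho against Ctrl, the log2 fold change was 1.22 ± 0.62 (SE), which is a description too, since its Ctrl fish also chose the gene. The log2 fold change of Ho against He was -1.67 ± 0.60 (SE) and is a description, since it rests on the He fish that chose the gene.

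A second copy, Slc16a9 (ABG768_004266, chromosome 12, 6999792 to 7007560), is annotated as MCT9b and was nearly silent. It had 13, 20 and 6 counts in Ctrl fish, 2, 19 and 1 in He fish and 4, 8 and 8 in Ho fish. The groups overlapped, and the copy was lower in He on average, with a log2 fold change of -0.79 ± 0.79 (SE, edgeR adjusted p = 0.751). None of the counts of either copy were fractional.

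Expressed as a share of the summed TPM of the 25 loci, SLC16A9 made up 2.20%, 2.39% and 3.16% in the Ctrl fish, 35.5%, 23.3% and 10.1% in the He fish and 1.80%, 4.26% and 16.4% in the Ho fish. It was a minor member in Ctrl and the most abundant one in He 1. The summed level of the family was 40.9, 34.3 and 19.6 TPM in Ctrl, 15.5, 19.9 and 19.5 in He, with 30.0, 26.1 and 16.5 in Ho. The 9 loci named for MCT1 to MCT4 summed to 17.2, 12.5 and 10.2 TPM in Ctrl, 4.80, 7.24 and 7.78 in He, with 17.9, 13.1 and 8.08 in Ho. Among the 9 is ABG768_010928, of uncertain identity, which supplied 3.26 of the 13.1 TPM in Ho 2 and 0 in every other fish. For these loci each He fish lay below each Ctrl fish, while Ho overlapped Ctrl and its lowest fish (8.08) lay just above the highest He fish (7.78). TPM sums carry a shift of the whole table. The median log2 difference of all loci in He against Ctrl was -0.28 on TPM plus 1 and -0.43 on TPM plus 0.1. On CPM, He and Ctrl overlapped for each tested locus among the 9. For SLC16A1, He 3 stood at 23.2 CPM and Ctrl 2 at 22.1. The separation of the TPM sums is therefore a description.

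Slc16a13 (ABG768_022412, chromosome 5, 15672978 to 15683508), annotated as MCT13, went the other way. It stood at 28.3, 13.6 and 12.6 CPM in Ctrl, 2.63, 1.45 and 4.01 in He, with 19.9, 5.23 and 4.97 in Ho. Every He fish lay below every fish of the other genotypes, and of the Ho fish only Ho 1 reached the level of Ctrl. The means were 18.2 ± 8.78 CPM (SD, n = 3) for Ctrl, 2.70 ± 1.28 for He and 10.03 ± 8.55 for Ho. In He against Ctrl, the log2 fold change was -2.77 ± 0.65 (SE), which did not pass the threshold with edgeR (adjusted p = 0.359) and passed it with DESeq2 (adjusted p = 0.00251). Without Ctrl 1, the fish with the highest level, DESeq2 gave -2.27 and an adjusted p of 0.128. The DESeq2 call held in the 8 other fits with 1 fish left out (adjusted p from 4.18e-05 to 0.0242). In Ho against He it was 1.91 ± 0.64 (SE, edgeR adjusted p = 0.730), and in Ho against Ctrl -0.86 ± 0.60 (SE, edgeR adjusted p = 0.869).

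Markers of skin epithelium were mostly lower in He against Ctrl, as Slc16a13 was. Over 78 marker loci, 8 of them at 0 in every library, the summed level ran from 263 to 2321 TPM in Ctrl, 119 to 346 in He and 329 to 864 in Ho. Of the 50 tested, 44 had log2 fold changes below 0 in He against Ctrl, beside 50.7% of all loci. DESeq2 called 20 of the 50, all lower, against 1.82% of all loci. Most other marker lists fell too, with 7 of 8 tested cartilage and bone, 6 of 7 red blood cell and 21 of 27 slow muscle loci below 0. Immune cells had 7 of 10 below 0, vessels 9 of 13, fat 6 of 9, glia 10 of 16 and fast muscle 2 of 21. In Ctrl 3 the skin sum was 263 TPM, within the range of He, and Slc16a13 stood at 12.6 CPM, above all He fish. Fish by fish, the skin sum and Slc16a13 ranked alike within Ctrl but not within He or Ho. He 2 had the highest skin sum of He (346 TPM) and the lowest Slc16a13 (1.45 CPM). Ho 2 had 864 TPM and 5.23 CPM, where Ho 1 had 423 TPM and 19.9 CPM. The part of skin, or of the other cell types, in the difference between genotypes was not tested. In such bulk tissue, fewer cells of a type and less RNA per cell cannot be told apart.

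The 4 fish with the highest SLC16A9 were also the 4 with the lowest Slc16a13, namely He 1, He 2, He 3 and Ho 3. Among 66 pairs of tested members, this pair had the most negative correlation of log2 CPM (Pearson's r = -0.89 over the 9 fish). It is given as a description, since the pair was picked for it and the fish share their genotypes. The locus most like Slc16a13 across the fish was NCOA4 (r = 0.98), a receptor for the autophagy of ferritin, which stood at 53.8, 43.8 and 44.0 CPM in Ctrl, 31.9, 29.1 and 31.6 in He, with 50.9, 33.5 and 36.5 in Ho.

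**Figure D2:**
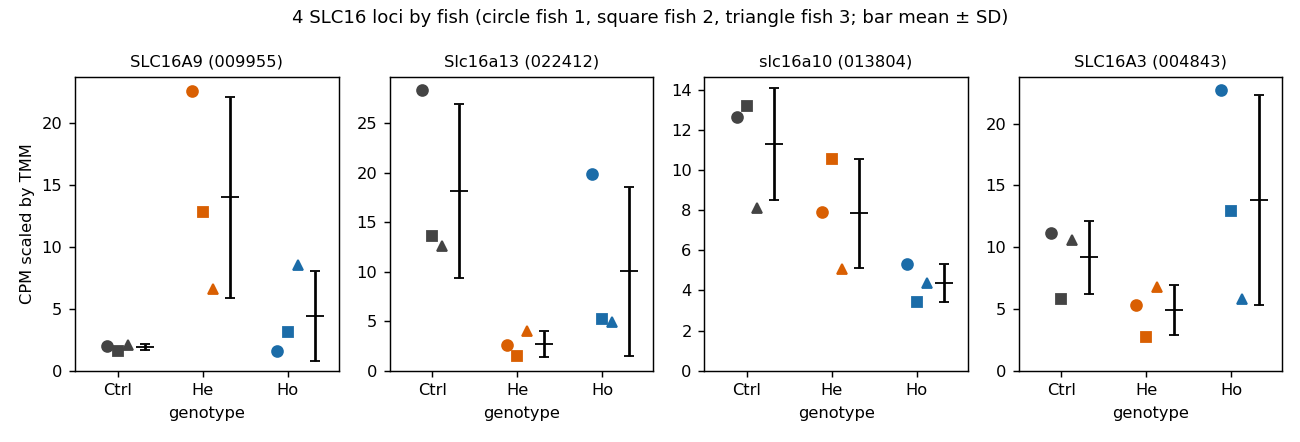
CPM scaled by TMM in each fish for SLC16A9, Slc16a13, slc16a10 and SLC16A3, by genotype, with the mean and SD of 3 fish beside the points. SLC16A9 was above 6 CPM in every He fish, Slc16a13 was at most 4.01 CPM in them, slc16a10 stood at 3.45 to 5.31 CPM in Ho, and SLC16A3 spread from 5.84 to 22.8 CPM in Ho.

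**Figure D3:**
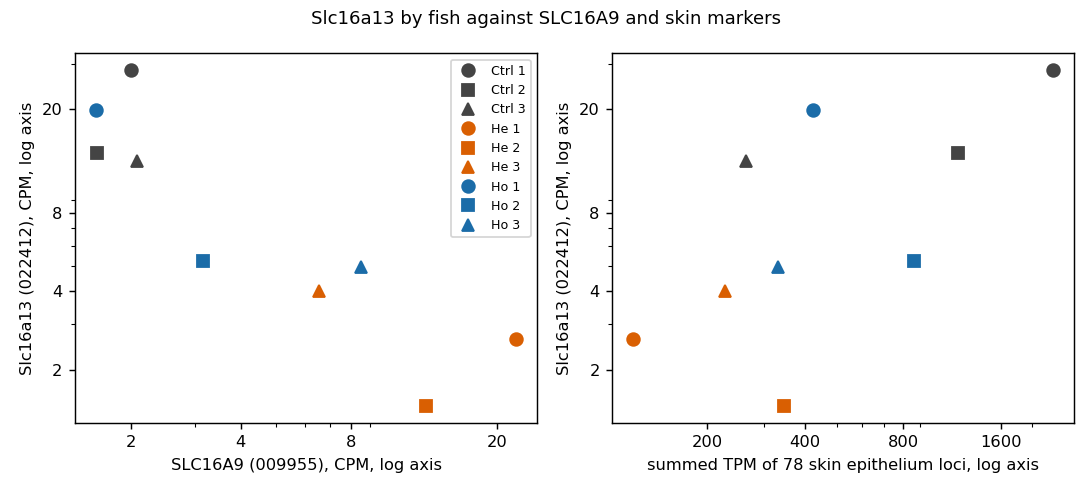
Slc16a13 in CPM against SLC16A9 in CPM (left) and against the summed TPM of the skin markers (right), with 1 point per fish and all axes on a log scale. The He fish lie at the lower right of the left panel, and on the right Ctrl 1 lies at the highest skin sum (2321 TPM) and the highest Slc16a13 (28.3 CPM).

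The thyroid hormone and amino acid carrier slc16a10 (ABG768_013804, chromosome 20, 2513634 to 2531416), annotated as MCT10, was lowest in Ho. It stood at 12.6, 13.2 and 8.10 CPM in Ctrl, 7.89, 10.5 and 5.09 in He, with 5.31, 3.45 and 4.37 in Ho. The Ho fish lay below all Ctrl fish, and the He fish overlapped both other groups. Mean levels were 11.3 ± 2.79 CPM (SD, n = 3) for Ctrl, 7.84 ± 2.72 for He and 4.37 ± 0.932 for Ho. In Ho against Ctrl the log2 fold change was -1.37 ± 0.31 (SE), which did not pass with edgeR (adjusted p = 0.640) and passed with DESeq2 (adjusted p = 0.0441). The DESeq2 call was lost when any 1 of Ctrl 1, Ctrl 2, He 1, Ho 1, Ho 2 or Ho 3 was left out, with adjusted p-values from 0.0672 to 0.525 and log2 fold changes from -1.52 to -1.21. In He against Ctrl the log2 fold change was -0.53 ± 0.30 (SE, edgeR adjusted p = 0.575), and in Ho against He it was -0.84 ± 0.31 (SE, edgeR adjusted p = 0.730).

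Slow muscle markers (30 loci, 1 at 0 in every library) summed to between 2644 and 4550 TPM in Ctrl, 1671.6 to 2792.5 in He and 1117 to 3063 in Ho. Of the 27 tested, 21 had log2 fold changes below 0 in He against Ctrl and 23 in Ho against Ctrl. Over all loci, 50.7% and 51.5% lay below 0 in these contrasts. Cartilage and bone markers (17 loci, 4 at 0 in every library, alpl among them) summed to between 203 and 558 TPM in Ctrl, 30.1 to 211 in He and 39.8 to 271 in Ho. Of the 8 tested, 7 were below 0 in He against Ctrl and 8 in Ho against Ctrl. Skin epithelium markers had 40 of 50 below 0 in Ho against Ctrl, red blood cell markers 6 of 7 and vessel markers 7 of 13. Other lists lay mostly above 0, with 2 of 9 fat, 2 of 10 immune cell, 2 of 16 glia and 8 of 21 fast muscle markers below 0. DESeq2 and edgeR called none of these marker loci in Ho against Ctrl. Their part in the difference in slc16a10 was not tested. The locus most like slc16a10 was WDR59 (r = 0.96 over 9 fish), part of the machinery that senses amino acids upstream of mTORC1. It stood at 2.49, 2.47 and 1.86 CPM in Ctrl, 2.20, 2.47 and 1.59 in He, with 1.39, 1.21 and 1.21 in Ho. Each tested member had a closest named locus at r from 0.93 to 0.98, so such likenesses are descriptions. A link between WDR59 and slc16a10 was not tested.

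A pair of short models annotated as slc16a10 lay nearby on chromosome 20, ABG768_013799 (2420703 to 2421002) and ABG768_013803 (2496500 to 2496940). The first had no counts, and the second at most 3 in any fish.

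None of the tested proton-coupled carriers of lactate passed the threshold in any contrast with either tool when all fish were fitted. SLC16A1 (ABG768_026506, chromosome 8, 20421479 to 20460334), MCT1b, stood at 28.8, 22.1 and 24.9 CPM in Ctrl, 16.0, 19.8 and 23.2 in He, with 32.7, 14.5 and 20.7 in Ho. The genotypes overlapped throughout, and the Ho fish alone spanned the range of all the others. Its log2 fold changes were -0.36 ± 0.30 (SE, edgeR adjusted p = 0.703) in He against Ctrl and -0.16 ± 0.30 (SE, edgeR adjusted p = 0.958) in Ho against Ctrl. Its closest match across the fish was TMEM70 (r = 0.97), an assembly factor of the mitochondrial ATP synthase.

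The other MCT1 copy, Slc16a1 (ABG768_024382, chromosome 6, 32808087 to 32821105), stood at 2.49, 0.941 and 1.86 CPM in Ctrl, 0.995, 1.01 and 0.827 in He, with 1.82, 0.804 and 2.02 in Ho. He was the tightest group, within the range of Ho, and the log2 fold change of He against Ctrl was -0.89 ± 0.46 (SE, edgeR adjusted p = 0.536).

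SLC16A3 (ABG768_004843, chromosome 12, 25131640 to 25139042), MCT4, stood at 11.2, 5.78 and 10.6 CPM in Ctrl, 5.33, 2.73 and 6.75 in He, with 22.8, 12.9 and 5.84 in Ho. Ho 1 and Ho 2 had the highest levels of all fish, while Ho 3 lay between He 1 and He 3. The log2 fold change was 1.50 ± 0.51 (SE, edgeR adjusted p = 0.730, DESeq2 adjusted p = 0.321) in Ho against He. Without Ho 3 it was 1.86 with DESeq2, and passed (adjusted p = 0.0348). In He against Ctrl it was -0.90 ± 0.51 (SE, edgeR adjusted p = 0.568), and in Ho against Ctrl 0.60 ± 0.50 (SE, edgeR adjusted p = 0.886). Ptprb, a phosphatase of vessel walls, was the locus most like SLC16A3 (r = 0.96). Vessel markers (14 loci) summed to between 33.1 and 62.5 TPM in Ctrl, 25.1 to 42.3 in He and 33.1 to 52.9 in Ho. The median log2 fold change of the 13 tested was -0.13 in He against Ctrl and 0.06 in Ho against He. The part of vessels in the level of SLC16A3 was not tested.

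Further loci named SLC16A3 lie on chromosome 19 (ABG768_011581) and chromosome 3 (ABG768_019639). They had identical counts in every library, at most 1.5 each and above 0 in 5 fish, so that reads could not be assigned to one or the other. SLC16A8 (ABG768_004603), named for MCT3 of the retinal pigment epithelium, had a single count in 1 fish.

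Named for MCT2, SLC16A7 (ABG768_015863 and ABG768_020748) had 0 to 7 counts per fish. The remaining SLC16A7 locus (ABG768_010928, chromosome 18, 29433685 to 29442550) had 73 counts in Ho 2 and none in the other 8 fish, where a count of 0 allows up to 3. Its Swiss-Prot hit names SLC16A7 and its protein description names MCT13, so its identity is uncertain.

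SLC16A5 (ABG768_004717, chromosome 12, 20906350 to 20923895), MCT6, which carries drugs such as bumetanide in mammals, stood at 12.8, 10.1 and 7.13 CPM in Ctrl, 6.47, 6.65 and 4.65 in He, with 10.3, 7.01 and 5.51 in Ho. All He fish were below all Ctrl fish, by a narrow margin between He 2 and Ctrl 3. The log2 fold change of He against Ctrl was -0.76 ± 0.30 (SE, edgeR adjusted p = 0.412, DESeq2 adjusted p = 0.382). The second SLC16A5 copy (ABG768_020114) had 0 to 20 counts per fish, with overlapping groups.

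Slc16a4 (ABG768_026488, chromosome 8, 20013066 to 20028427), MCT5, lies at lower coordinates than SLC16A1 on the same chromosome and varied most between single fish. It had 4, 6 and 31 counts in Ctrl fish, 2, 3 and 221 in He fish and 6, 197 and 14 in Ho fish. He 3 and Ho 2 stood far above the rest, 1 fish in each mutant group, and the remaining mutants lay below Ctrl 3. Its log2 fold change in He against Ctrl was 2.49 ± 1.89 (SE, edgeR adjusted p = 0.675) and turned to -2.56 without He 3. In Ho against Ctrl it was 2.31 ± 1.89 (SE, edgeR adjusted p = 0.886) and turned to -0.44 without Ho 2. The closest match was tmem179 (r = 0.94), with 21.1 CPM in He 3 and 15.1 in Ho 2 against 7.49 to 9.81 in the other fish.

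**Figure D4:**
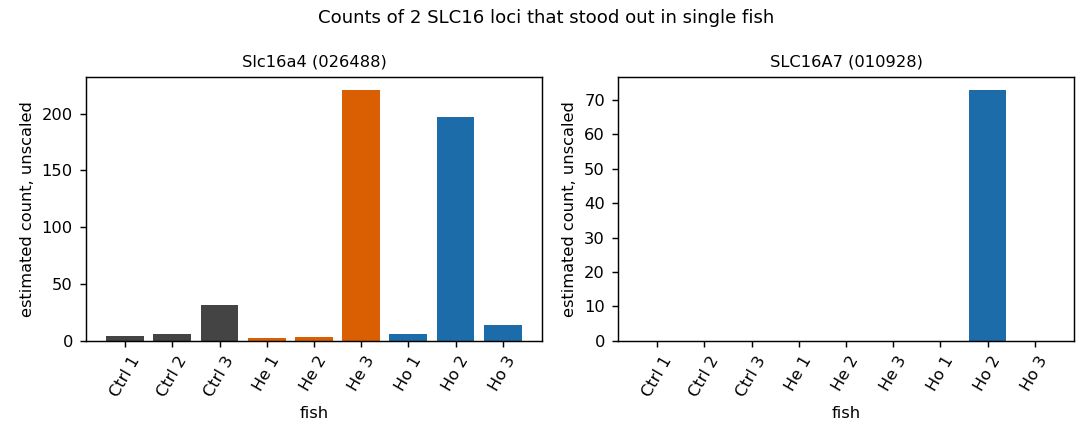
Estimated counts per fish, not scaled to library size, of Slc16a4 (left) and of the SLC16A7 locus ABG768_010928 (right), coloured by genotype. Slc16a4 reached 221 counts in He 3 and 197 in Ho 2, and the SLC16A7 locus had its 73 counts in Ho 2.

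SLC16A6, named for MCT7, which exports ketone bodies from the liver of zebrafish, had 3 loci. Of these, ABG768_004626 and ABG768_019631 were tested, and neither passed the threshold in any contrast with either tool when all fish were fitted. ABG768_004626 stood at 1.56, 4.12 and 0.223 CPM in Ctrl, 3.41, 1.01 and 2.36 in He, with 1.39, 0.632 and 1.07 in Ho, with Ctrl alone spanning the other groups. The copies ABG768_011589 on chromosome 19 and ABG768_019631 on chromosome 3 had fractional counts in 7 libraries each, and are uncertain as single loci. Summed over that pair, Slc16a6 had 27, 37 and 10 counts in Ctrl fish, 12, 21 and 7 in He fish and 27, 42 and 4 in Ho fish, with overlapping groups.

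The slc16a12b loci (ABG768_004524 and ABG768_009868), named for the creatine carrier MCT12, had 0 to 12 counts per fish and were not tested. The second Slc16a13 locus (ABG768_025509) had 0 to 6 counts per fish.

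With edgeR, 0 of the 12 tested members were called in He against Ctrl at an adjusted p under 0.05, as were 0.0% of all tested loci. At an unadjusted p under 0.05, 3 were called (1 higher, 2 lower), with 10.4% of all loci. DESeq2 called SLC16A9 (higher) and Slc16a13 (lower), 2 of the 10 members to which it gave an adjusted p, against 1.82% of all loci. With the stricter rule of an adjusted p under 0.01 and a log2 fold change beyond 1 in size, these were again the 2 called, with 0.556% of all loci. The groups did not overlap for 3 members (1 higher, 2 lower), as for 14.6% of all loci. SLC16A9 is among the members in each of these counts other than edgeR's adjusted one, so nothing was read from them. In this contrast 9 of 12 members had a log2 fold change below 0, beside 50.7% of all loci. The members' median was -0.64, against -0.01 over all loci.

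In Ho against Ctrl, edgeR called 0 of 12 members at an adjusted p under 0.05 (0.0% of all loci) and 1, the lower slc16a10, at an unadjusted p under 0.05 (6.5% of all loci). DESeq2 called 1 of 11, also slc16a10, against 0.437% of all loci. It was also the single member whose groups did not overlap, as held for 11.2% of all loci. The median log2 fold change of the members was -0.30, with 8 of 12 below 0, and that of all loci was -0.01, with 51.5% below 0.

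In Ho against He, edgeR again called 0 of 12 (0.0% of all loci), and 4 at an unadjusted p under 0.05, SLC16A3 and Slc16a13 higher and SLC16A9 and slc16a10 lower in Ho (6.79% of all loci). SLC16A9 is in that count through the He fish that chose it, so nothing was read from the count. DESeq2 called 0 of 10, against 0.134% of all loci, and only Slc16a13 had groups without overlap, as did 12.3% of all loci. The members' median was 0.28, with 8 of 12 above 0, beside 0.01 for all loci, of which 48.6% lay below 0. The contrasts share their fish in pairs, so their counts are not independent of each other.

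**Figure D5:**
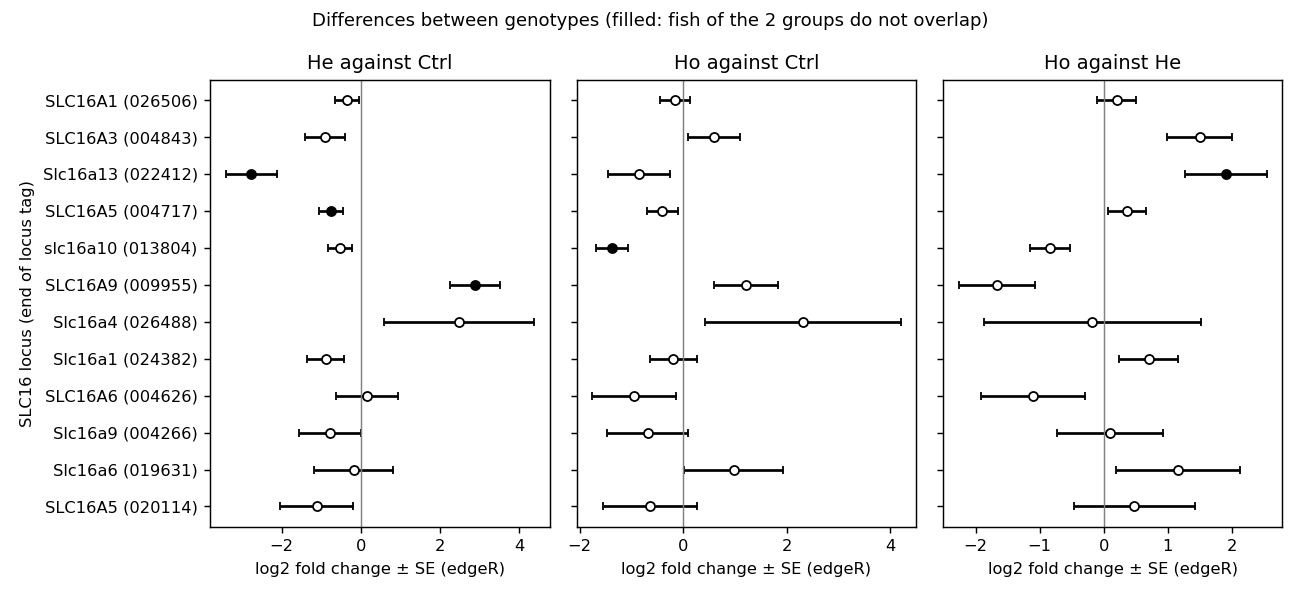
Log2 fold changes with standard errors from edgeR for the 12 tested SLC16 loci in the 3 contrasts, ordered by mean TPM, with filled points where the fish of both groups do not overlap. SLC16A9 (2.88) and Slc16a13 (-2.77) lie at opposite ends in He against Ctrl, and slc16a10 (-1.37) is the filled point in Ho against Ctrl.

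Genes that work with these transporters were taken from 9 lists of 147 loci, of which 102 were tested: chaperones, sodium-coupled carriers, lactate and pyruvate metabolism, carnitine, creatine, ketone bodies, thyroid hormone, amino acid transport and regulators. With edgeR 0 were called in any contrast at an adjusted p under 0.05. At an unadjusted p under 0.05, 3 were higher and 6 lower in He against Ctrl, 5 higher and 8 lower in Ho against Ctrl, and 5 higher and 4 lower in Ho against He. These were 8.82%, 12.7% and 8.82% of those tested, beside 10.4%, 6.5% and 6.79% of all loci. Of the same 102, DESeq2 called 1 higher and 1 lower in He against Ctrl, 1 lower in Ho against Ctrl and 0 in Ho against He. Over all loci, DESeq2 called 1.82%, 0.437% and 0.134% in these contrasts.

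The chaperone BSG (ABG768_001948), basigin, was well expressed at 129, 103 and 94.2 CPM in Ctrl, 96.8, 77.6 and 83.0 in He, with 113, 110 and 90.6 in Ho. The difference of He against Ctrl did not pass (log2 fold change -0.34 ± 0.23 SE, edgeR adjusted p = 0.624). The 3 loci of the sodium-coupled carriers slc5a8 and slc5a12 were too low to test.

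In lactate and pyruvate metabolism (26 of 34 loci tested), DESeq2 called 1 lower in Ho against Ctrl. This was GPT2 (ABG768_025230), the aminotransferase that converts pyruvate to alanine, at 34.1, 46.6 and 36.6 CPM in Ctrl, 25.2, 27.5 and 40.4 in He, with 17.4, 8.79 and 16.1 in Ho. All Ho fish lay below all others, with a log2 fold change of -1.47 ± 0.31 (SE, edgeR adjusted p = 0.640, DESeq2 adjusted p = 0.00767). DESeq2 lost the call without Ctrl 1, Ctrl 2 or Ho 2 (adjusted p = 0.0553, 0.243 and 0.0712). PDK3, a kinase that shuts pyruvate dehydrogenase off, stood at 13.4, 8.29 and 13.9 CPM in Ctrl and 4.99, 3.79 and 6.18 in Ho (log2 fold change -1.25 ± 0.31 SE, edgeR adjusted p = 0.640). PDHA1, a subunit of that dehydrogenase, stood at 169, 127 and 187 CPM in Ctrl and 114, 88.4 and 86.7 in He (log2 fold change -0.74 ± 0.30 SE, edgeR adjusted p = 0.431).

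In carnitine handling (22 of 30 tested), the pathway of MCT9's cargo in mammals, DESeq2 called SHMT2 (ABG768_024550) higher in He against Ctrl. This serine hydroxymethyltransferase of the mitochondrion, better known for serine and folate metabolism, stood at 11.9, 9.14 and 11.9 CPM in Ctrl, 15.6, 24.4 and 22.5 in He, with 12.9, 18.8 and 13.6 in Ho. He lay above Ctrl in all fish (log2 fold change 0.93 ± 0.24 SE, edgeR adjusted p = 0.359, DESeq2 adjusted p = 0.0435), and the DESeq2 call was lost without any 1 of Ctrl 1, Ctrl 2, He 2, He 3, Ho 1 or Ho 3, with adjusted p-values of 0.0771 to 0.355. The locus named for the organic cation and carnitine transporter Slc22a4 (ABG768_015797) is described as like solute carrier family 22 member 5, so its identity is uncertain. It was low, at 0.267, 0.0896 and 0.223 CPM in Ctrl, 0.853, 0.441 and 2.10 in He, with 0.858, 0.460 and 0.873 in Ho. All mutants exceeded all Ctrl fish, with a log2 fold change in He of 2.51 ± 0.70 (SE, edgeR adjusted p = 0.359). Bbox1, which makes carnitine in its last step, and CPT1A, the gate of fatty acid entry into mitochondria, had log2 fold changes of -1.27 ± 0.45 (SE) and -1.11 ± 0.36 (SE) in Ho against Ctrl, with edgeR adjusted p-values of 0.732 and 0.727.

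In creatine handling (12 of 12 tested), gamt (ABG768_003368), which makes creatine, stood at 129, 112 and 171 CPM in Ctrl, 251, 187 and 346 in He, with 275, 314 and 231 in Ho. All mutants lay above all Ctrl fish, and neither log2 fold change passed, 0.93 ± 0.29 in He (SE, edgeR adjusted p = 0.359) and 0.99 ± 0.29 in Ho (SE, edgeR adjusted p = 0.690). The enzyme of the preceding step, gatm (ABG768_011316), stood at 150, 168 and 92.2 CPM in Ctrl, 137, 171 and 175 in He, with 85.7, 80.4 and 94.5 in Ho. The Ho fish lay below all He fish and overlapped Ctrl 3, and the log2 fold change of Ho against He did not pass (-0.89 ± 0.26 SE, edgeR adjusted p = 0.730).

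In thyroid hormone handling (6 of 16 tested), DESeq2 called dio1 (ABG768_026754), a deiodinase that activates or clears thyroid hormone, lower in He against Ctrl. It stood at 6.36, 5.69 and 6.91 CPM in Ctrl, 2.56, 2.29 and 3.31 in He, with 5.31, 6.95 and 4.37 in Ho. Like Slc16a13, dio1 was lower in every He fish than in any other fish, with a log2 fold change of -1.22 ± 0.25 (SE, edgeR adjusted p = 0.359, DESeq2 adjusted p = 0.0126). Leaving out Ctrl 1, Ctrl 2, He 1 or He 2 ended the call, with adjusted p-values of 0.0989 to 0.190 from DESeq2.

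Ketone body metabolism (5 of 8 tested) had no member past an unadjusted p of 0.05 in any contrast. Its most expressed members, acat1 and OXCT1, had log2 fold changes of -0.23 ± 0.29 (SE) and 0.39 ± 0.38 (SE) in He against Ctrl. Among the regulators, HIF1A, which mammalian SLC16A3 responds to, stood at 37.3, 41.3 and 34.6 CPM in Ctrl, 23.2, 33.0 and 26.3 in He, with 26.7, 26.2 and 25.5 in Ho. Every mutant lay below every Ctrl fish (log2 fold changes of -0.46 ± 0.20 SE in He, edgeR adjusted p = 0.471, and -0.53 ± 0.20 SE in Ho, edgeR adjusted p = 0.732). Myc, a known activator of SLC16A1 in mammals, stood at 4.76, 4.08 and 10.03 CPM in Ctrl and 22.4, 17.0 and 9.67 in Ho (log2 fold change 1.39 ± 0.58 SE, edgeR adjusted p = 0.748).

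The 5 named loci most like SLC16A9 over the 9 fish were med10 (r = 0.93), a subunit of Mediator, SVIL (r = 0.92), the membrane and actin linker supervillin, EIF5B (r = 0.92), which joins ribosomal subunits, Brwd1 (r = 0.92), a bromodomain protein, and znf143 (r = 0.92), a transcription factor. SVIL stood at 61.7, 65.2 and 72.6 CPM in Ctrl, 139, 94.7 and 104 in He, with 50.9, 75.2 and 87.9 in Ho, highest in He as SLC16A9 was. These likenesses are descriptive, being the highest of all named loci over only 9 fish. SVIL was picked for following SLC16A9, itself chosen for its level in He, so nothing was read from the level of SVIL in He.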

How the data were processed

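RNA was enriched for poly(A), sequenced as paired ends on a NovaSeq X Plus and aligned by the authors to the *C. alburnus* genome; the aligner and the counter are not given in the sources used here. The authors deposited an estimated count per locus, not scaled to library size, and TPM and FPKM per locus. Columns of genotype means were not used. Estimated counts, 94.3% of them whole numbers to within 1e-09, were rounded, filtered with filterByExpr, scaled by TMM (factors 0.708 to 1.40) and fitted over all 9 libraries with edgeR 4.0.16 (robust glmQLFit, glmQLFTest) in R 4.3.3, the common dispersion being 0.14. P-values were adjusted by Benjamini and Hochberg over the loci tested, or by DESeq2 1.42.0 over those it kept, and 0.05 was the threshold. CPM values carry the TMM scaling, and the prior count for correlations of log2 CPM was 2. Differences between loci used the authors' TPM, and FPKM served as an alternative. The principal component used the 500 most variable loci and held 37.0% of their variance. Other scalings, filters, limma 3.58.1 on log2 TPM, a replicate block and each library left out were tried. Scripts were tested on simulated data.

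The rule for named genes took every SLC16 locus, up to 4 loci of each partner list with the smallest p and the 5 loci most like SLC16A9. The closest 1 is given for some of the other members only. The members and lists were chosen with earlier results of these data known. No sequence is shown. The values of 1 untested member are not reported here. Replicates are separate fish. Counts of 0 were given a limit of 3 counts, which covers counting error only. Tables came from pandas 2.3.3 and numpy 2.4.6 under Python 3.11.15, and figures from matplotlib 3.10.9.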

Additional observations from a re-analysis of the deposited data

Results flagged for a closer look

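The SLC16A7 locus ABG768_010928, which had too few counts to be tested, had 73 counts in Ho 2 and 0 in each of the other 8 libraries, the 3 Ctrl libraries included. It was picked out as a signal outside the tested loci that no control fish showed. With 1 fish carrying it, nothing can be said of the Ho genotype.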

How the results depend on the processing

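DESeq2 in place of edgeR raised the members called from 0 to 2 in He against Ctrl and from 0 to 1 in Ho against Ctrl. It called 1.82% and 0.437% of all loci in these contrasts. Of the 2 members, SLC16A9 is no test, since this contrast chose it, and the other was Slc16a13. Every other edgeR setting, and limma on TPM, called 0 members in each contrast: RLE scaling, library totals only, no filter, a minimum of 10 counts in each library, a fit of the 6 libraries compared alone, and each library left out. With 1 library left out, the members called by DESeq2 ranged from 1 to 2 in He against Ctrl. The 1 left without Ctrl 1 was SLC16A9, so it is no test. The range was 0 to 1 in Ho against Ctrl and 0 to 2 in Ho against He. The 2 in Ho against He came without Ho 3. Of these, SLC16A9 is no test, since its He fish chose it, and the other was SLC16A3. The replicate block also called 0 members in each contrast. Deviations of each fish from the mean log2 CPM of its genotype, locus by locus, were correlated between fish of different genotypes. Same-numbered fish gave r from -0.26 to 0.26, 2 of 9 pairs above 0.1, and differently numbered fish from -0.329 to 0.305. These values gave no sign that the numbers pair the fish, but with 3 fish per genotype they cannot decide it. Over all edgeR and limma alternatives and DESeq2, 25 of 36 log2 fold changes kept their sign. Over these settings, the adjusted p ranged from 0.00251 to 0.777 for Slc16a13 in He against Ctrl and from 0.0441 to 0.999 for slc16a10 in Ho against Ctrl. With DESeq2 and 1 library left out, these ranges were 4.18e-05 to 0.128 and 0.00419 to 0.525. With library totals alone, the median log2 fold change of all loci was -0.41 in He and -0.24 in Ho against Ctrl, where TMM gave -0.01 in each, and 10 and 8 of 12 members were then below 0. The 7 loci with a mean TPM of at least 1 were a count that FPKM did not move. The tested members held 81 to 3684 counts in total, and what difference 3 fish per genotype could show at the low end was not measured. The causes of these dependences were not tested.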

Other observations

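The fish that stood out for Slc16a4 also stood out at partner loci, a feature picked after the values were seen. SLC43A2 (ABG768_002597), a carrier of large neutral amino acids, had 28.5 CPM in Ho 2 and 0.639 to 2.31 CPM in the other 8 fish. A second gatm locus (ABG768_011313), for the first enzyme of creatine synthesis, had 42.1 CPM in He 3 and 2.53 to 8.69 CPM in the other 8 fish. No difference between genotypes follows from single fish.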
